A study of Homo sapiens with 24 samples.

Results

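The genes described here encode 10 members of the Notch pathway: the Fringe glycosyltransferases LFNG, MFNG and RFNG, the receptors NOTCH1, NOTCH2 and NOTCH3, the ligands JAG1 and JAG2, and the nuclear targets HES1 and HEY1. They were 10 of the 20503 genes that the probes of the array could be assigned to, and were found through the RefSeq transcript printed beside each probe. These transcripts belonged to 13 of the 50683 probes, 2 each for LFNG, NOTCH1 and NOTCH2 and 1 for each other gene, and all 13 are reported. LFNG was picked out by the study from these same arrays, and JAG2 is also in the study's Wnt3a signature from them. The direction of these genes here is therefore not independent evidence.

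Notch receptors are single-pass membrane proteins that are cleaved when a Jagged or Delta ligand on a neighboring cell binds them, and the released intracellular domain joins RBPJ on DNA to switch on repressors of the HES and HEY families. Fringe enzymes extend a fucose on the receptor's extracellular repeats, which changes how well each kind of ligand signals. In the liver, Jagged1 and Notch2 are best known for steering progenitors to the bile duct lineage.

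Gene expression was measured in HepaRG, a human hepatocellular carcinoma line whose progenitors can become hepatocytes or biliary cells, on 24 one-colour arrays, 3 for each of 8 conditions. Cells were left without transfection, electroporated with 80 pmol of a negative control siRNA or of a siRNA to CTNNB1 (the gene of β-catenin), or kept without transfection and given 300 ng/ml FZD8_CRD, the Wnt-binding domain of mouse Frizzled8 that traps Wnt ligands. Each of these 4 backgrounds was studied without and with 200 ng/ml mouse recombinant Wnt3a, and ligand and trap were present for 72 h in serum-free medium with 0.1% BSA. The results concern 1 cell line and 1 CTNNB1 siRNA, and FZD8_CRD cells and their controls were not electroporated. Per the series' description the 3 arrays of a condition come from independent culture experiments.

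The windows before the 2 LFNG starts are shown because the 2 LFNG probes, which name different transcripts, gave different results. Neither start was matched to the transcript of either probe. The window before HES1 is shown as the textbook RBPJ-bound promoter of the pathway. These windows are RefSeq sequences (GRCh38.p14) of the 250 bases before each start, all on the plus strand. They lie at chr7:2512279-2512528 and chr7:2517613-2517862 for LFNG, with starts 5334 bases apart, and at chr3:194135898-194136147 for HES1. Capitals mark matches to GTGGGAA (the RBPJ motif) or to CACGAG or CACAAG (the N box that HES repressors bind), searched on both strands.
LFNG, upstream start: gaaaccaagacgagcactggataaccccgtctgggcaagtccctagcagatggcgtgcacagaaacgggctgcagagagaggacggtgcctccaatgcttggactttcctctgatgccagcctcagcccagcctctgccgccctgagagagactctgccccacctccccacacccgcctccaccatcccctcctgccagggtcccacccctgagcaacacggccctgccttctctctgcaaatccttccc
LFNG, downstream start: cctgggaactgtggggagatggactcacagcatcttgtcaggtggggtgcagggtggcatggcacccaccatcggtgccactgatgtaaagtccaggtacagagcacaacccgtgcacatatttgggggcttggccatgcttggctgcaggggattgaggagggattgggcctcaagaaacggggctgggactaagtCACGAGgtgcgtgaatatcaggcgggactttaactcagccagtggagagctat
HES1: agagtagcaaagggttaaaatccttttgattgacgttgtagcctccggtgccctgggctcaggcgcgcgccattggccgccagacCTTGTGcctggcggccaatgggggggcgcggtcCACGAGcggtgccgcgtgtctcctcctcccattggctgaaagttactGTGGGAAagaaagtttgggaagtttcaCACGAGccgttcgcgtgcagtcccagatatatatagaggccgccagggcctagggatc

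In the HES1 window, GTGGGAA stood 85 bases before the start on the plus strand, and N boxes stood 165, 132 and 58 bases before it. The downstream LFNG window held 1 N box, 53 bases before the start, and the upstream window had none of these letters. Among all 35116 windows of the same length in the RefSeq table, 5.43% held GTGGGAA and 15.1% an N box. CTTTGA or CTTTGT, the core letters of the motif bound by TCF/LEF factors, the partners of β-catenin, occurred on either strand in 22.8% of all windows and in 0 of the 9 windows listed for 8 of the 10 genes. These matches describe letters in short windows only, and no windows are described for MFNG and HEY1.

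All 13 probes were well above background on all 24 arrays. Levels are given as the log2 of the processed signal relative to the 75th percentile of its own array, so that 0 is the level of the 75th percentile and 1 unit is 2-fold. Levels of different probes are not set against each other, since probes differ in how well they bind. On the arrays, 58.3 to 66.5% of spots were above background, and arrays of 1 condition correlated at 0.983 to 0.997. The knockdown was visible in both CTNNB1 probes: the first ranged from 0.26 to 0.77 on the 6 arrays with CTNNB1 siRNA and from 3.22 to 4.11 on the other 18, and the second from -2.77 to -2.51 against 0.64 to 1.34. RNF43, which encodes a ubiquitin ligase that Wnt signals induce, was 0.73 higher after Wnt3a in untransfected cells (limma, adjusted p = 0.00059). Of the other genes checked for this, AXIN2 was 0.37 higher on 1 probe (adjusted p = 0.0468) and 0.33 on the other (0.272). NKD1 was not called (0.460). Of these genes and CTNNB1, 4 in all, Wnt3a called 2 higher without transfection and 1 higher with FZD8_CRD. FZD8_CRD itself called 1 higher and 2 lower, both without and with Wnt3a. The difference between these 2 Wnt3a responses was called for 0 of them. These genes therefore do not settle how far FZD8_CRD blocked Wnt3a. All 6 hepatocyte markers examined were well above background in at least 1 condition, as were 5 of 6 biliary or progenitor markers. The 4 endothelial markers and the 3 leukocyte markers named on the array were well above background on all 24 arrays. Detection by itself therefore does not set these cell types apart. EPCAM, a progenitor marker, was not well above background throughout any condition.

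After CTNNB1 siRNA, compared with control siRNA, LFNG on probe A_23_P8452, MFNG, NOTCH2 on probe A_23_P200792, NOTCH3 and JAG2 were lower and HEY1 was higher, both without and with Wnt3a. The other LFNG probe (-0.21 and -0.23) and the other NOTCH2 probe (-0.09 and -0.17) did not pass. Without Wnt3a, 7 of the 13 probes passed an adjusted p under 0.05 in limma (2 higher, 5 lower), where 10% of all 31067 probes tested did (4.12% higher, 5.87% lower). With Wnt3a, 6 probes did (1 higher, 5 lower), against a background of 9.91% (3.86% higher, 6.05% lower). The median size of the change over the 13 probes was 0.40 without and 0.32 with Wnt3a, beside 0.16 and 0.15 over all probes. Values of the 3 CTNNB1 siRNA arrays and the 3 control siRNA arrays did not overlap for 9 probes without Wnt3a, against 36.2% of all probes, and for 8 with Wnt3a, against 27.7%. Without Wnt3a, means with CTNNB1 siRNA and in untreated cells were -5.05 and -5.01 for LFNG A_23_P8452 and -2.99 and -2.97 for MFNG. They were 3.36 and 3.68 for NOTCH2 A_23_P200792, -3.96 and -3.08 for NOTCH3, -2.84 and -3.15 for JAG2 and -3.76 and -4.94 for HEY1. CTNNB1 siRNA was not tested against untreated cells.

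FZD8_CRD was followed by higher levels of 7 of the 13 probes in the absence of Wnt3a, in 5 genes beside NOTCH2 with both of its probes, where 41.6% of all probes were called and 20.1% were called higher and 21.5% lower. In its presence 8 probes passed (7 higher, 1 lower), where 37.2% of all probes did (18.6% higher and 18.6% lower). Arrays did not overlap for 6 probes without Wnt3a (45.8% of all probes) and 7 with it (44%). The members' median size of change was 0.28 and 0.43, and that of all probes 0.33 and 0.30. Wnt3a itself called 2 of the 13 probes in cells without transfection (LFNG and JAG2, both higher; background 5.24%, with 2.91% higher and 2.33% lower), 0 with control siRNA (1.78%, with 0.94% higher and 0.843% lower), 0 with CTNNB1 siRNA (0.0161%, all higher) and 2 with FZD8_CRD (JAG1 and HEY1, both higher; 7.78%, with 4.16% higher and 3.62% lower). Arrays without and with Wnt3a did not overlap for 2, 3, 1 and 3 probes in these backgrounds, beside 15%, 22.8%, 21.9% and 20.4% of all probes. With control siRNA 3 of the 13 probes were under an unadjusted p of 0.05, as were 4248 of all 31067, and with CTNNB1 siRNA 0 were, beside 3144 of all.

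Control siRNA against no transfection called 6 of the 13 probes without Wnt3a (4 higher, 2 lower; background 22%, with 12.5% higher and 9.56% lower) and 3 with Wnt3a (all higher; 8.83%, with 5.49% higher and 3.33% lower). Arrays did not overlap for 7 and 5 probes, beside 37.6% and 20.6% of all probes. By the methods' thresholds (unadjusted p under 0.01 with a fold above 1.5 or below 0.7), Wnt3a called 2, 1, 0 and 2 of the 13 probes without transfection, with control siRNA, with CTNNB1 siRNA and with FZD8_CRD, beside 4.26%, 2.67%, 1.2% and 5.59% of all probes. By the same thresholds CTNNB1 siRNA called 6 without and 5 with Wnt3a (5.51% and 6.28%), FZD8_CRD 3 and 4 (22.3% and 19.1%) and control siRNA 2 and 3 (10.7% and 5.32%). Comparisons that share an arm, such as control siRNA against none and CTNNB1 siRNA against control siRNA, share those 3 arrays and are not independent. With arrays scaled to their spike-in probes, which read control RNA added at labeling, in place of the 75th percentile, the limma calls that stood were those of LFNG A_23_P8452 after CTNNB1 siRNA (without and with Wnt3a) and after FZD8_CRD and control siRNA (both without Wnt3a), of MFNG, NOTCH3 and JAG2 after CTNNB1 siRNA with Wnt3a, and of JAG1 and HEY1 after FZD8_CRD with Wnt3a. The other calls for the 13 probes were lost under it, though some of these differences shrank and others stayed about as large or grew, as given below for several genes. A fit to only the conditions compared ended the 4 calls of Wnt3a against no Wnt3a, those of HES1 and NOTCH2 A_33_P3258824 after FZD8_CRD without Wnt3a and of NOTCH1, LFNG and NOTCH3 with it, and those of HES1 and RFNG after control siRNA without Wnt3a and of MFNG, JAG2 and LFNG with it.

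**Figure D1:**
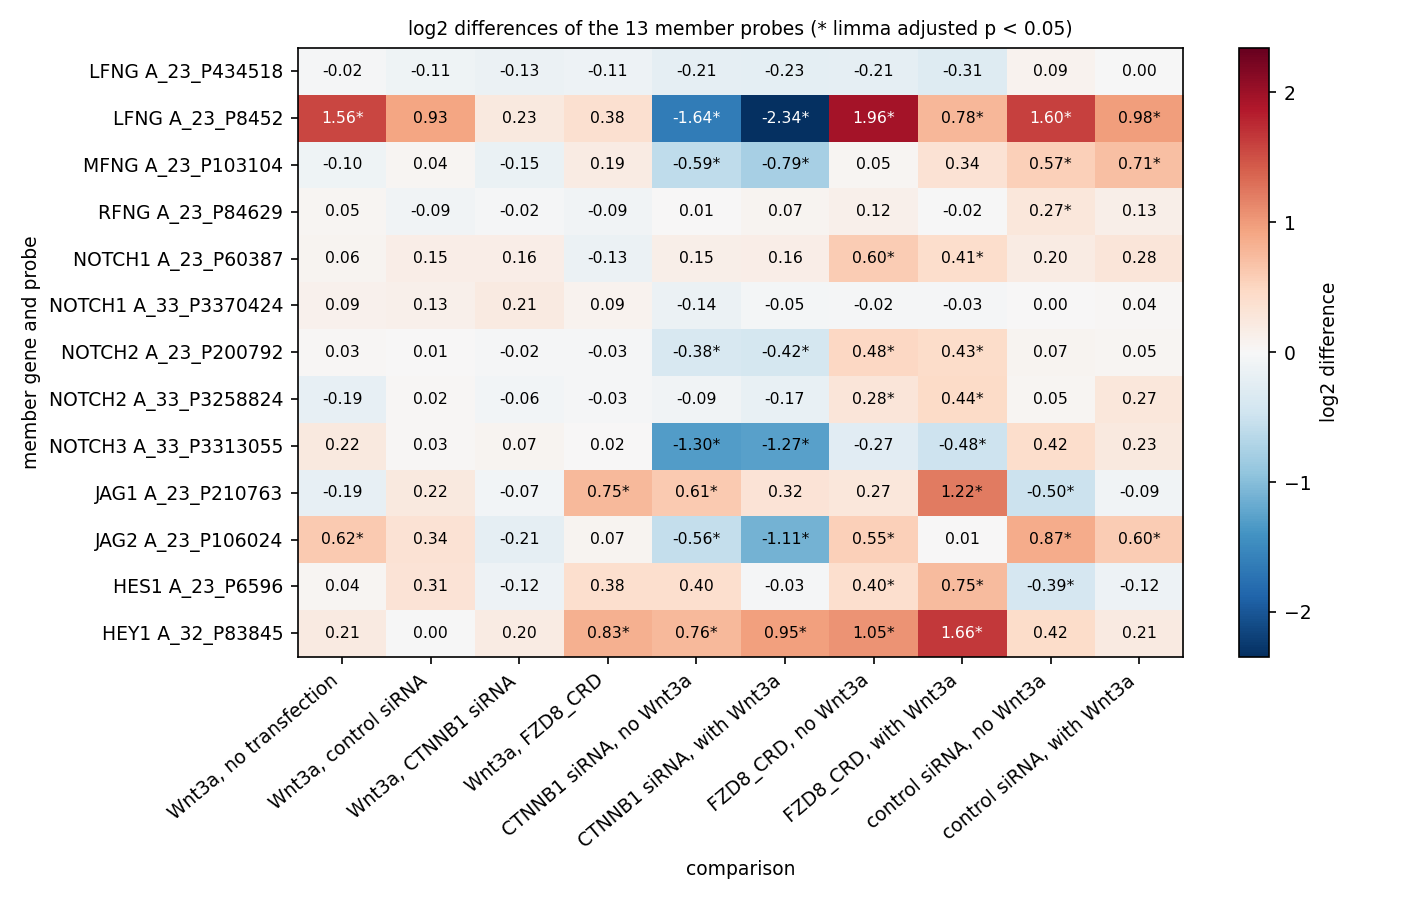
Log2 differences of the 13 probes in 10 comparisons, with red for higher, blue for lower and an asterisk for a limma adjusted p under 0.05. The row of LFNG probe A_23_P8452 holds differences from -2.34 to 1.96, and that of the other LFNG probe none outside -0.31 to 0.09. With arrays scaled to their spike-in probes, RFNG after control siRNA and NOTCH2 probe A_33_P3258824 after FZD8_CRD, both without Wnt3a, changed sign.

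Among the Fringe genes, LFNG (chr7:2512529-2529177), or Lunatic Fringe, was read by 2 probes that differed. On probe A_23_P8452, designed to transcript NM_001040167, the untreated arrays read -4.75, -5.13 and -5.17 and the Wnt3a arrays -3.84, -2.75 and -3.77. With control siRNA the arrays read -3.47, -3.43 and -3.33 without Wnt3a and -2.65, -2.38 and -2.41 with it. With CTNNB1 siRNA they read -4.84, -4.87 and -5.44 without Wnt3a and -4.43, -5.23 and -4.81 with it. The 6 CTNNB1 siRNA arrays and the 3 untreated arrays were therefore low, and all of them lay below the lowest of the other 15 arrays. With FZD8_CRD the levels were -3.41, -3.05 and -2.71, and with FZD8_CRD and Wnt3a -2.67, -2.72 and -2.62, all in the upper range. In the order of condition means, the only neighbors whose arrays did not overlap were CTNNB1 siRNA with Wnt3a (-4.82 ± 0.40, SD, n = 3) and Wnt3a alone (-3.45 ± 0.61, SD, n = 3).

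**Figure D2:**
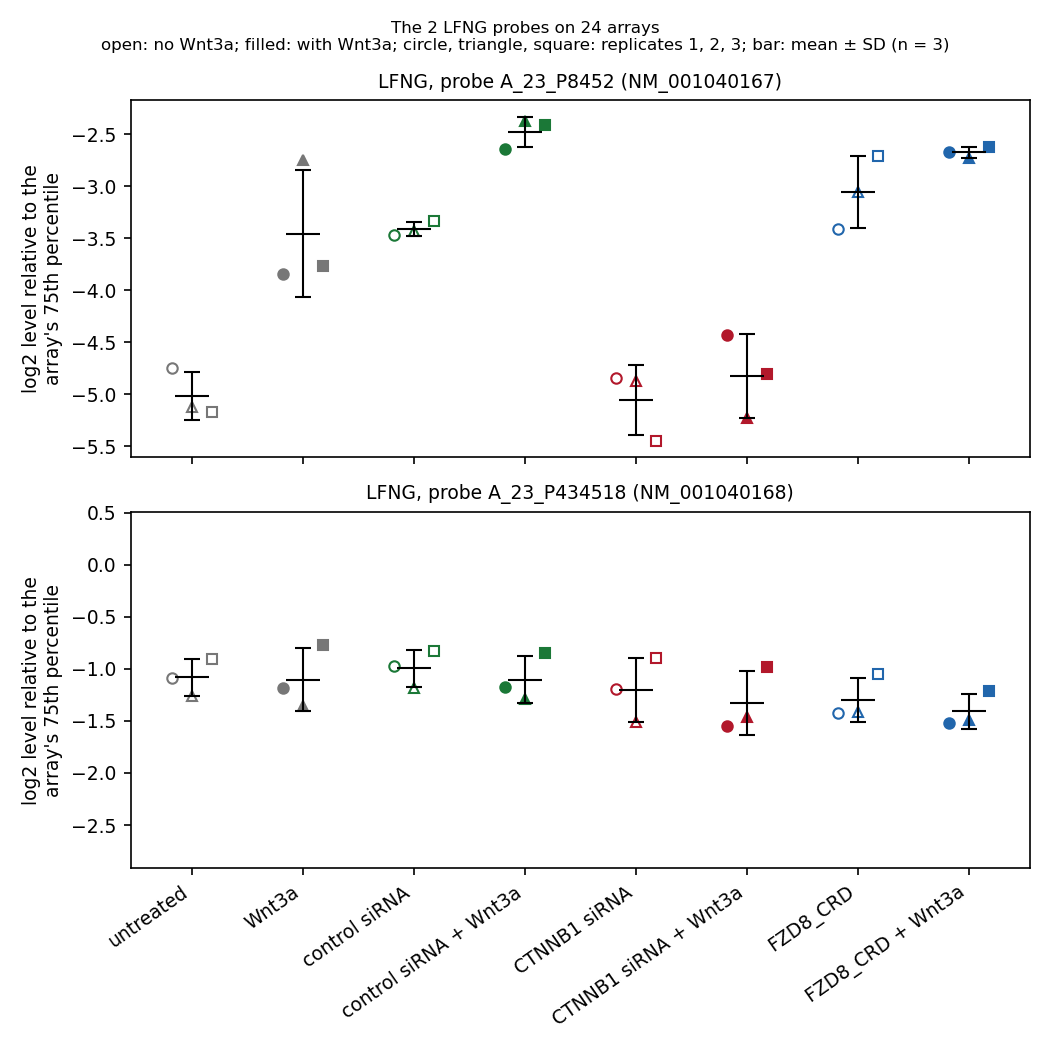
Levels of the 2 LFNG probes on 24 arrays, as log2 relative to the array's 75th percentile, with each condition's mean and SD over 3 arrays and axes of equal span. Probe A_23_P8452 is near -5 in untreated and CTNNB1 siRNA cells and higher elsewhere, while condition means of the other probe span 0.41.

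On this probe LFNG was 2.95-fold higher with Wnt3a than without in cells that were not transfected (log2 difference 1.56, 95% CI 1.02 to 2.09; limma, adjusted p = 0.00236), by 0.91, 2.37 and 1.40 on the 3 slides. The second Wnt3a array was the highest of its group by over 1 log2 unit, and without it the difference was 1.21. No single array ended the call, but leaving out a whole slide did for 2 of the 3 slides (adjusted p between 0.0542 and 0.362), as did spike-in scaling (1.16, adjusted p = 0.0621) and a fit to only the 2 conditions compared (adjusted p = 0.427). With normexp background correction, which models each spot as signal plus noise, the difference was 0.71. Among control siRNA cells the difference was 0.93 (0.40 to 1.47), higher on all 3 slides, with an adjusted p of 0.0672 in limma. It passed with normexp correction (0.60, adjusted p = 0.0356), with only the 2 conditions in the fit (adjusted p = 0.0144) and at the methods' thresholds. It was 0.23 (-0.30 to 0.77) among CTNNB1 siRNA cells and 0.38 (-0.15 to 0.92) among FZD8_CRD cells, and neither passed.

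CTNNB1 siRNA lowered the A_23_P8452 level 3.12-fold without Wnt3a (log2 difference -1.64, CI -2.18 to -1.11; limma, adjusted p = 0.000319) and 5.08-fold with it (-2.34, CI -2.88 to -1.81; limma, adjusted p = 4.92e-06). Both calls stood under each alternative that could be computed, including each array left out, with differences of -0.83 and -1.24 under normexp correction. FZD8_CRD raised it 3.88-fold without Wnt3a (1.96, CI 1.42 to 2.49; limma, adjusted p = 6.35e-06), or by 0.93 under normexp correction. With Wnt3a on both sides FZD8_CRD raised it by 0.78, and that call was lost without Wnt3a array 1 or 3 or FZD8_CRD + Wnt3a array 1 or 3 (limma, adjusted p from 0.0512 to 0.125). Control siRNA raised LFNG 3.04-fold over no transfection (1.60, CI 1.07 to 2.14; limma, adjusted p = 0.000289), or by 0.71 under normexp correction. With Wnt3a on both sides the transfection difference was 0.98, and it was lost in 4 of 6 single-array omissions, of Wnt3a arrays 1 and 3 and of control siRNA + Wnt3a arrays 2 and 3 (limma, adjusted p from 0.0725 to 0.158).

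The other LFNG probe, A_23_P434518, designed to NM_001040168, did not follow. Its condition means lay between -1.41 ± 0.17 (FZD8_CRD with Wnt3a) and -1.0 ± 0.17 (control siRNA; both SD, n = 3), and it was called in 0 of the 12 comparisons. For CTNNB1 siRNA with Wnt3a, where the first probe fell by 2.34, this one differed by -0.23 (CI -0.62 to 0.16), and for FZD8_CRD without Wnt3a by -0.21 (CI -0.60 to 0.18). Over the 24 arrays the 2 probes correlated at -0.09, given as a description since the arrays of a condition cluster. Processed signal of A_23_P8452, after background subtraction, ran from 18.4 to 144.8 intensity units and that of A_23_P434518 from 228.2 to 440.9. Each probe is reported by its own name below, since these arrays do not settle which of them follows LFNG RNA as a whole, and an analysis that keeps only the brightest probe of each gene would report LFNG as not called.

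MFNG (chr22:37469063-37486384), Manic Fringe, was read by a probe printed in 10 spots, whose spread within an array had a median SD of 0.10 in log2. Untreated arrays read -2.78, -2.94 and -3.19. Control siRNA arrays read -2.38, -2.39 and -2.44 and CTNNB1 siRNA arrays -2.92, -2.98 and -3.08, with no overlap between these 2 conditions. This was a fall by 0.59 (limma, adjusted p = 0.0261), but each single array left out ended the call (adjusted p from 0.0531 to 0.107). With Wnt3a on both sides MFNG fell by 0.79 (limma, adjusted p = 0.00318), and no single array ended that call, but leaving out slide 1 or 2 did (adjusted p from 0.0926 to 0.113). MFNG rose by 0.57 with control siRNA against no transfection (limma, adjusted p = 0.0168; 0.0513 to 0.0736 without control siRNA array 1 or untreated array 3) and by 0.71 with Wnt3a on both sides (adjusted p = 0.0114; 0.0541 to 0.0613 without Wnt3a array 1 or 3). Its difference with Wnt3a was between -0.15 and 0.19 in the 4 backgrounds and was called in none.

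RFNG (chr17:82047902-82051811), Radical Fringe, had condition means within 0.27 of each other. Its only call was 0.27 higher with control siRNA than without transfection (limma, adjusted p = 0.0377), which was lost without control siRNA array 1 or 3 or untreated array 3 (0.0999 to 0.218) and turned to -0.02 with spike-in scaling.

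Of the receptors, NOTCH3 (chr19:15159038-15200995) fell with CTNNB1 siRNA. Control siRNA arrays read -2.61, -2.68 and -2.67 and CTNNB1 siRNA arrays -3.66, -4.27 and -3.95. With Wnt3a the control siRNA arrays read -2.53, -2.58 and -2.75 and the CTNNB1 siRNA arrays -3.74, -3.92 and -4.00. These 6 CTNNB1 siRNA arrays were the lowest 6 of all 24, and the next, an FZD8_CRD array, read -3.54. NOTCH3 was 2.47-fold lower without Wnt3a (log2 difference -1.30, CI -1.65 to -0.95; limma, adjusted p = 4.75e-05) and 2.40-fold lower with it (-1.27, CI -1.61 to -0.92; limma, adjusted p = 3.93e-05). With spike-in scaling, which takes off -0.09, the first had an adjusted p of 0.0561. The second stood under each alternative. Under normexp correction the differences were -0.73 and -0.64. Wnt3a changed NOTCH3 by 0.02 to 0.22 in the 4 backgrounds, called in none. FZD8_CRD with Wnt3a read 0.48 below Wnt3a alone (limma, adjusted p = 0.0278), on overlapping arrays of -2.98, -3.50 and -3.52 against -2.81, -2.66 and -3.08, and 4 single-array omissions ended that call (Wnt3a arrays 1 and 2, FZD8_CRD + Wnt3a arrays 2 and 3; 0.0791 to 0.119).

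NOTCH2 (chr1:119911553-120069662) was represented by probe A_23_P200792, designed to NM_024408, and probe A_33_P3258824, designed to NM_001200001. On A_23_P200792 the 6 CTNNB1 siRNA arrays were the lowest, between 3.21 and 3.44, and the 6 FZD8_CRD arrays the highest, between 4.01 and 4.24, with the other 12 from 3.62 to 3.83. CTNNB1 siRNA lowered this level by small, regular amounts: it fell by 0.38 without Wnt3a (limma, adjusted p = 0.0024) and by 0.42 with it (adjusted p = 0.00101). FZD8_CRD raised it by 0.48 (limma, adjusted p = 4.22e-05) and, with Wnt3a on both sides, by 0.43 (adjusted p = 0.000176). All 4 calls stood with each single array left out, and all 4 were lost with spike-in scaling (limma, adjusted p of 0.349 or higher). The differences under that scaling were -0.29 and -0.62 after CTNNB1 siRNA, without and with Wnt3a. After FZD8_CRD they were 0.09 and 0.34. The CTNNB1 siRNA calls were also lost without slide 1 or 2 (no Wnt3a; adjusted p from 0.0807 to 0.0858) and without slide 2 (with Wnt3a; adjusted p = 0.0819). On A_33_P3258824 the CTNNB1 siRNA differences were -0.09 (CI -0.30 to 0.12) and -0.17 (CI -0.39 to 0.04), not called. FZD8_CRD raised it by 0.28 without Wnt3a (limma, adjusted p = 0.0319), a value that became -0.11 with spike-in scaling and was lost without untreated array 1 or 3 or FZD8_CRD array 1 or 2 (0.0598 to 0.126). With Wnt3a the rise was 0.44 (limma, adjusted p = 0.00192), lost without slide 1 (adjusted p = 0.100) and with spike-in scaling (0.35, adjusted p = 0.504). The 2 probes thus went the same way after FZD8_CRD, and over the 24 arrays they correlated at 0.77.

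NOTCH1 (chr9:136494433-136546048) also had 2 probes, both designed to NM_017617. The probe printed in 10 spots, A_23_P60387, read -2.54, -2.46 and -2.44 on untreated arrays and -1.82, -1.79 and -2.02 with FZD8_CRD, a rise of 0.60 (limma, adjusted p = 0.000368) that no single array ended but that was 0.21 and lost with spike-in scaling (adjusted p = 0.590). With Wnt3a on both sides it rose by 0.41 (limma, adjusted p = 0.0101). The adjusted p was 0.0709 without Wnt3a array 1, 0.0922 with only the 2 conditions in the fit and 0.561 with spike-in scaling, which takes off 0.09. The single-spot probe A_33_P3370424 differed by -0.02 (CI -0.26 to 0.21) and -0.03 (CI -0.26 to 0.21) in the same comparisons and was called in 0 of 12. These 2 probes of 1 transcript correlated at -0.14 over the arrays, so the NOTCH1 rise rests on A_23_P60387 alone.

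Among the ligands, JAG2 (chr14:105140995-105168776) gave a pattern with tight replicates. Untreated arrays read -3.13, -3.16 and -3.16, and Wnt3a arrays -2.57, -2.34 and -2.69. Control siRNA arrays read -2.29, -2.39 and -2.16 without Wnt3a and -1.88, -1.95 and -1.99 with it. With CTNNB1 siRNA they read -2.76, -2.92 and -2.83, and with CTNNB1 siRNA and Wnt3a -3.11, -3.19 and -2.85. The order of means therefore ran from untreated and CTNNB1 siRNA at the low end to control siRNA with Wnt3a at the high end, and neighbors did not overlap at 3 places: CTNNB1 siRNA to FZD8_CRD, FZD8_CRD with Wnt3a to control siRNA, and control siRNA to control siRNA with Wnt3a.

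Wnt3a raised JAG2 by 0.62 without transfection (1.53-fold; limma, adjusted p = 0.00512), a call that was lost without the second Wnt3a array (adjusted p = 0.052), without slide 1 or 2 (0.214 to 0.597), with only the 2 conditions in the fit, and with spike-in scaling, where the difference was 0.22. The corresponding differences were 0.34 with control siRNA (limma, adjusted p = 0.135), -0.21 with CTNNB1 siRNA (adjusted p = 0.559) and 0.07 with FZD8_CRD (adjusted p = 0.836). CTNNB1 siRNA lowered JAG2 1.47-fold without Wnt3a (log2 difference -0.56; limma, adjusted p = 0.003) and 2.16-fold with it (-1.11, CI -1.35 to -0.88; limma, adjusted p = 2.28e-06), and the second call stood under each alternative. The first was lost without slide 1 or 2 (adjusted p from 0.0871 to 0.118) and with spike-in scaling (-0.47, adjusted p = 0.906). FZD8_CRD raised JAG2 by 0.55 without Wnt3a (limma, adjusted p = 0.000583), a call lost with spike-in scaling (0.16, adjusted p = 0.661) and at the methods' thresholds, and with Wnt3a on both sides the difference was 0.01 (CI -0.23 to 0.24). Control siRNA against none raised it by 0.87 (limma, adjusted p = 8.08e-05) and, with Wnt3a, by 0.60 (adjusted p = 0.00481). Both calls were lost with spike-in scaling (limma, adjusted p from 0.102 to 0.192), which took 0.28 off the first difference and made the second 0.87. The second call was also lost without slide 1 (adjusted p = 0.202).

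JAG1 (chr20:10637684-10673999), the ligand mutated in Alagille syndrome, was highest with FZD8_CRD and Wnt3a together, at 0.68, 0.62 and 0.53, above all other 21 arrays. FZD8_CRD arrays without Wnt3a read -0.42, -0.45 and 0.44, so that array 3 stood apart from the others of its condition. Wnt3a arrays read -0.59, -0.58 and -0.65 and untreated arrays -0.21, -0.39 and -0.64. FZD8_CRD with Wnt3a was 2.32-fold above Wnt3a alone (log2 difference 1.22, CI 0.88 to 1.55; limma, adjusted p = 1.11e-05), under each alternative. Wnt3a among FZD8_CRD cells raised JAG1 by 0.75 (limma, adjusted p = 0.00755), but by 1.11, 1.07 and 0.08 on the 3 slides, and leaving out FZD8_CRD array 1 or 2 ended the call (0.0809 to 0.0812). Without FZD8_CRD array 3 the difference was 1.04.

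JAG1 was lowest with control siRNA, at -0.90, -0.93 and -0.91, and read -0.31, -0.35 and -0.25 with CTNNB1 siRNA. The difference between these, 0.61, passed (limma, adjusted p = 0.0183), but not without any 1 of the control siRNA arrays or CTNNB1 siRNA array 1 or 3 (0.0516 to 0.0745). Control siRNA was 0.50 below no transfection (limma, adjusted p = 0.0306), again lost for 5 of 6 arrays, untreated 1 and 2 and each control siRNA array (0.0713 to 0.157). With Wnt3a the CTNNB1 siRNA difference was 0.32 (CI -0.01 to 0.66; limma, adjusted p = 0.259).

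Of the nuclear targets, HEY1 (on chromosome 8), a transcriptional repressor, was lowest in untreated cells at -5.37, -4.60 and -4.86 and highest with FZD8_CRD and Wnt3a at -3.19, -2.94 and -3.07. Wnt3a alone read -4.71, -4.91 and -4.56, and FZD8_CRD alone -4.19, -4.12 and -3.37. The 3 FZD8_CRD + Wnt3a arrays lay above all others, and the 9 arrays of FZD8_CRD and CTNNB1 siRNA came next, above every array of the remaining 4 conditions. FZD8_CRD raised HEY1 2.07-fold without Wnt3a (log2 difference 1.05, CI 0.59 to 1.5; limma, adjusted p = 0.000703) and 3.16-fold with it (1.66, CI 1.20 to 2.12; limma, adjusted p = 1.11e-05), the latter under each alternative. The former was lost with spike-in scaling (0.66, adjusted p = 0.0960), and normexp correction gave 0.31 and 0.65. Wnt3a among FZD8_CRD cells raised HEY1 by 0.83 (limma, adjusted p = 0.025), and leaving out any FZD8_CRD + Wnt3a array or FZD8_CRD array 1 or 2 ended that call (0.0593 to 0.193).

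HEY1 was also higher after CTNNB1 siRNA, by 0.76 without Wnt3a, with arrays of -3.91, -3.75 and -3.64 against -4.57, -4.63 and -4.37 (limma, adjusted p = 0.0323). Each single array left out ended this call (0.0516 to 0.128). With Wnt3a the difference was 0.95 (limma, adjusted p = 0.00681), lost without CTNNB1 siRNA + Wnt3a array 2 (0.0519). Both calls were also lost with normexp correction, with differences of 0.16 and 0.35. They were lost with spike-in scaling too, where the difference without Wnt3a was 0.85 and 0.20 was taken off the one with Wnt3a. The call without Wnt3a was lost in 14 of 21 alternatives, which also include quantile normalization, the authors' log2 values, no filter on dim probes and each of the 3 slides left out. HEY1 therefore rose where LFNG on A_23_P8452, NOTCH3 and JAG2 fell.

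HES1 (chr3:194136148-194138732), whose promoter window is printed above, was highest with FZD8_CRD and Wnt3a, at -3.05, -3.23 and -3.23, then with FZD8_CRD at -3.48, -3.65 and -3.53. These 6 arrays lay above the other 18, of which the highest, an untreated array, read -3.71. HES1 was 1.68-fold higher with FZD8_CRD and Wnt3a than with Wnt3a alone (log2 difference 0.75, CI 0.47 to 1.02; limma, adjusted p = 0.000195), a call lost with spike-in scaling (0.66, adjusted p = 0.142), and the difference was 0.34 under normexp correction. Without Wnt3a the FZD8_CRD difference was 0.40 (limma, adjusted p = 0.0189), or 0.01 with spike-in scaling and 0.14 under normexp correction, which both ended the call. It was also lost without FZD8_CRD array 1 or untreated array 2 (0.0634 to 0.111), without any 1 of the 3 slides (0.0593 to 0.190) and with only the 2 conditions in the fit. CTNNB1 siRNA differed from control siRNA by 0.40 without Wnt3a (CI 0.13 to 0.68; limma, adjusted p = 0.0598) and by -0.03 with it (CI -0.31 to 0.25). Without Wnt3a the difference was 0.45, 0.42 and 0.33 on the 3 slides. With the slide as a block, 8 member probes rather than 7 were called in that comparison, and HES1 was the uncalled probe closest to the threshold. Control siRNA was 0.39 below no transfection (limma, adjusted p = 0.0393), which 4 of 6 single arrays ended (untreated 1 and 3, control siRNA 1 and 2; 0.0637 to 0.223), as did each slide left out and normexp correction (-0.19).

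**Figure D3:**
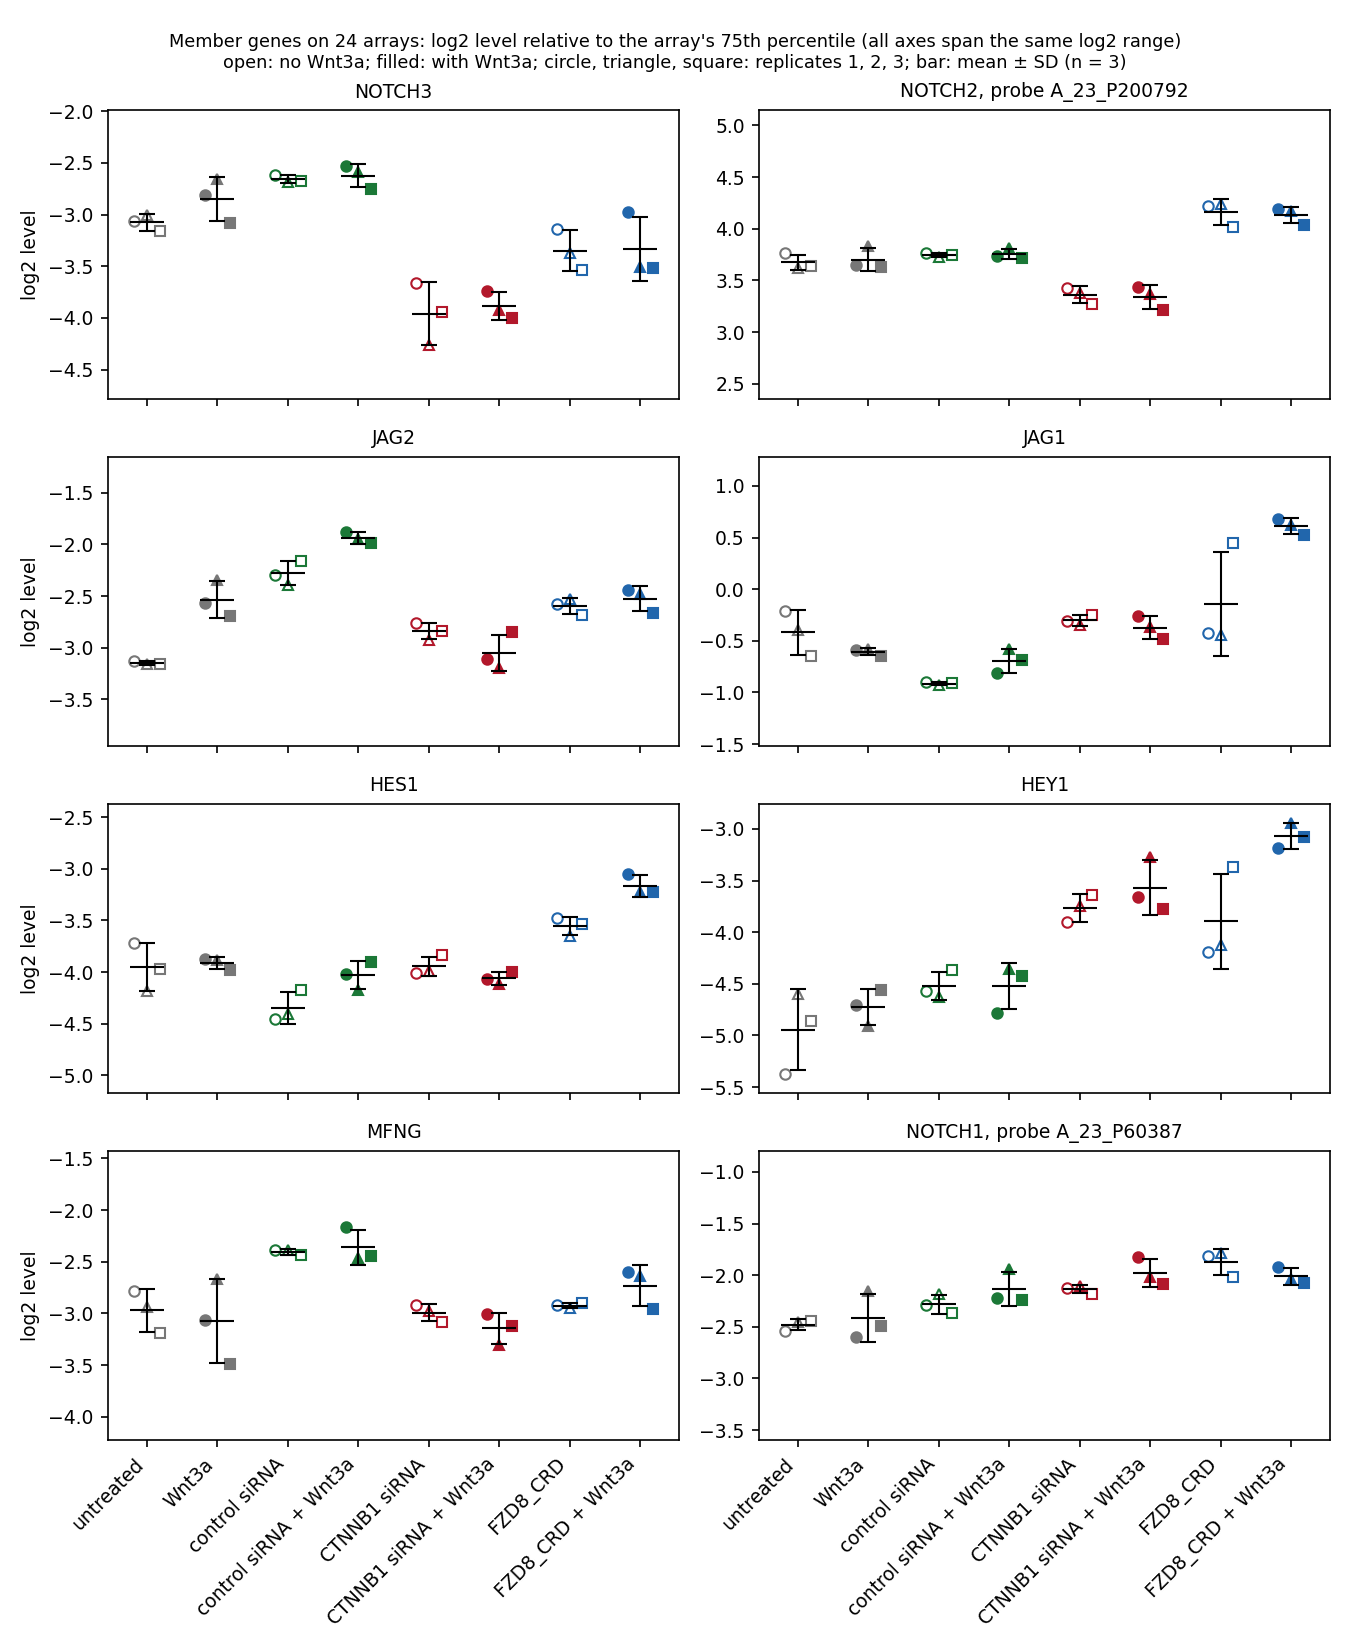
Levels of 8 probes on 24 arrays, as log2 relative to the array's 75th percentile, with each condition's mean and SD over 3 arrays and all axes of the same span. NOTCH3, JAG2 and MFNG lie below their control siRNA arrays in the CTNNB1 siRNA conditions, while JAG1, HES1 and HEY1 are highest with FZD8_CRD and Wnt3a together.

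Whether the response to Wnt3a itself differed between backgrounds was tested as a difference of differences. Between CTNNB1 siRNA and control siRNA 0 of the 13 probes passed (background 0.0129%), and 2 were under an unadjusted p of 0.05 in limma, beside 1009 of all 31067 probes: JAG2 with -0.55 (adjusted p = 0.743) and HES1 with -0.43 (adjusted p = 1). The LFNG probe A_23_P8452 had a difference of -0.70 (CI -1.46 to 0.05). Between FZD8_CRD and no FZD8_CRD 0 of 13 passed (background 0.0515%), and 3 were under an unadjusted p of 0.05 in limma, beside 3881 of all 31067 probes: LFNG A_23_P8452 with -1.18 (adjusted p = 0.174), JAG1 with 0.94 (adjusted p = 0.103) and JAG2 with -0.54 (adjusted p = 0.156). A call with Wnt3a in 1 background and none in another is therefore not shown to be a difference between them.

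**Figure D4:**
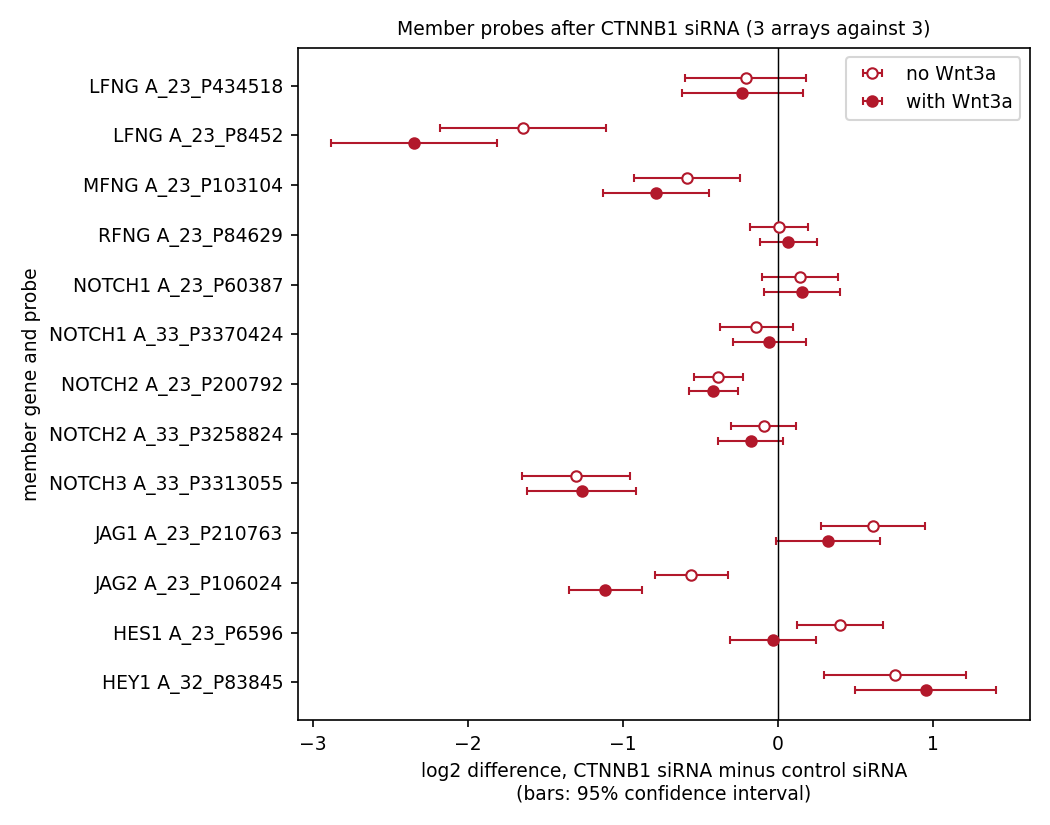
Log2 difference of CTNNB1 siRNA minus control siRNA for the 13 probes, without Wnt3a (open) and with Wnt3a (filled). Each compares 3 arrays with 3, and the 95% confidence intervals use the spread that limma pooled over all 24 arrays. The intervals of LFNG A_23_P8452, MFNG, NOTCH2 A_23_P200792, NOTCH3 and JAG2 lie below 0 in both, and those of HEY1 above 0 in both.

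Markers of cell state moved with the same conditions. All 6 hepatocyte markers fell with FZD8_CRD against untreated cells and all 6 with control siRNA, and with Wnt3a on both sides 4 and 3 of them fell. Their summed level, in percent of the 75th percentile, ranged from 74536 to 138468 on untreated arrays, from 36317 to 39601 with control siRNA and from 23863 to 36125 with FZD8_CRD. With CTNNB1 siRNA it was 46142 to 60332, with 0 of 6 called against control siRNA and 2 of 6 higher with Wnt3a. Wnt3a among FZD8_CRD cells raised 2 of the 6 hepatocyte markers. Mesenchymal markers rose with Wnt3a in cells without transfection (5 of 6 higher), with control siRNA (3 of 6) and with FZD8_CRD (4 of 6). In CTNNB1 siRNA cells Wnt3a called 0 of 6. These markers fell with CTNNB1 siRNA against control siRNA (3 of 6 lower without and 5 of 6 with Wnt3a). The summed mesenchymal level was 4942 to 6833 on untreated arrays, 9189 to 9871 with Wnt3a, 3623 to 5042 with control siRNA and 2079 to 2452 with CTNNB1 siRNA. With FZD8_CRD it was 2886 to 3842, and with FZD8_CRD and Wnt3a 3954 to 3971, but the genes went both ways: 2 of 6 were called higher (ACTA2 and VIM) and 2 lower, both without Wnt3a (COL1A2 and DCN) and with it (DCN and LUM). Biliary and progenitor markers moved in both directions: with FZD8_CRD, KRT19 rose by 0.36, and SOX9 and SPP1 fell by 0.53 and 1.37. SPP1 also rose by 0.93 and 0.82 with CTNNB1 siRNA (without and with Wnt3a), and fell by 1.06 and 0.89 with control siRNA and by 0.74 with Wnt3a in cells without transfection. SOX9 fell by 0.57 with CTNNB1 siRNA and Wnt3a. Of the 4 endothelial markers 1, KDR, fell with FZD8_CRD, both without and with Wnt3a, and the other 3 were not called. Their summed level was 344.8 to 420.4 on untreated arrays and 95.9 to 184.0 with FZD8_CRD, and 223.1 to 341.2 with Wnt3a and 76.3 to 91.4 with FZD8_CRD and Wnt3a. The sum of the 3 leukocyte markers was 415.5 to 672.7 on untreated arrays and 323.9 to 370.1 with FZD8_CRD. It was 438.7 to 526.3 with control siRNA and 277.0 to 333.6 with CTNNB1 siRNA. Of the 3, 1 was called lower with FZD8_CRD without Wnt3a, and 1 was higher with Wnt3a among FZD8_CRD cells. CD14, a monocyte marker, fell by 1.12 with CTNNB1 siRNA. The part of these shifts in the results for LFNG, NOTCH3, JAG2, HES1 and HEY1 was not tested, and in RNA from whole cultures fewer cells of a type and less RNA per cell cannot be told apart.

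Beyond the 10 members, 64 genes were listed by role in the pathway, among them 4 HES and HEY relatives not held to be Notch targets. Of the 64, 63 were named on the array and 56 were tested with 77 probes. After CTNNB1 siRNA 3 of the 56 rose and 9 fell without Wnt3a, and 4 rose and 9 fell with it. The share of their probes that passed was 16.9% and 18.2%, beside 10% and 9.91% of all probes, and their median difference was -0.01 and -0.06, beside -0.03 and -0.01. Wnt3a raised 4 and lowered 0 without transfection, raised 2 with control siRNA and changed 0 with CTNNB1 siRNA (5.19%, 2.6% and 0% of their probes, beside 5.24%, 1.78% and 0.0161%). FZD8_CRD raised 17 and lowered 9 without Wnt3a, and raised 11 and lowered 9 with it, and 41.6% and 28.6% of their probes were called beside 41.6% and 37.2% of all probes. Control siRNA against no transfection raised 12 and lowered 4 without Wnt3a, and raised 2 and lowered 3 with it, or 28.6% and 6.49% of their probes beside 22% and 8.83%. Wnt3a among FZD8_CRD cells raised 5 and lowered 4, or 14.3% of their probes beside 7.78%.

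NOTCH4, the remaining receptor gene, fell by 0.74 with CTNNB1 siRNA without Wnt3a (limma, adjusted p = 0.0488) and by 1.25 with it (adjusted p = 0.00115), and rose by 0.98 with Wnt3a among control siRNA cells (adjusted p = 0.0352). In the presence of Wnt3a it also rose by 0.63 with FZD8_CRD (limma, adjusted p = 0.0394) and by 0.88 with control siRNA against none (adjusted p = 0.0224). DLK2, a Delta-like protein without the usual receptor-binding domain, fell by 1.31 and 1.46 with CTNNB1 siRNA, and by 1.07 with FZD8_CRD in the presence of Wnt3a. DLL1, a Delta ligand, fell by 0.67 with FZD8_CRD and DLL3 rose by 0.65, with like values of -0.71 and 0.68 in the presence of Wnt3a. Of the target genes, HES7, the oscillating repressor of somite formation, rose by 0.67 with Wnt3a in cells without transfection (limma, adjusted p = 0.0243) and by 0.93 among control siRNA cells (adjusted p = 0.00681). It fell by 0.89 and 1.69 with CTNNB1 siRNA. HEYL, a HEY relative, was higher with FZD8_CRD (limma, adjusted p = 0.000516), with 1 of 3 untreated arrays above background and no fold given for that reason, and fell by 1.77 with Wnt3a among FZD8_CRD cells. With CTNNB1 siRNA and Wnt3a no array had HEYL well above background, and it was at least 3.40-fold lower than with control siRNA and Wnt3a (limma, adjusted p = 0.00633). HES4 rose by 0.66 and 0.44 with FZD8_CRD, and HES2 by 0.48 without Wnt3a.

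Among the proteases that cleave Notch, ADAM10, which cuts the receptor outside the membrane, fell by 0.43 and 0.49 on its probes with CTNNB1 siRNA, and PSEN2, a γ-secretase subunit, by 0.32. APH1A, of the same complex, fell by 0.85 on 1 probe, and APH1B fell by 0.39 with CTNNB1 siRNA and Wnt3a. With FZD8_CRD, ADAM17 rose by 0.59 and APH1A by 0.90 on its other probe, and PSEN2 fell by 0.22. In the presence of Wnt3a, FURIN, which processes the receptor precursor, rose by 0.79 and APH1B by 0.30 with FZD8_CRD, and NCSTN fell by 0.27 and PSEN2 by 0.39. Of the enzymes that add other sugars to the receptor, POGLUT1 fell by 0.45 and GXYLT1 by 0.51 with CTNNB1 siRNA, while GXYLT1 rose by 0.82, XXYLT1 by 0.61 and 0.63 on its probes, and GXYLT2 fell by 0.37 with FZD8_CRD.

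In the nuclear complex, the coactivators KAT2B and CREBBP rose by 0.37 and 0.38 with CTNNB1 siRNA. With FZD8_CRD the co-repressor CTBP2 rose by 0.81 and 0.84 on its probes, HDAC2 by 0.75, MAML1 by 0.39 and SNW1 by 0.19, and the coactivators KAT2A and MAML3 fell by 0.85 and by 0.94. CTBP1 rose by 0.21 with control siRNA, and NCOR1 fell by 0.20 with FZD8_CRD in the presence of Wnt3a. Of the genes for endocytosis and turnover, DTX2 rose on 4 probes by 0.82 to 0.97 with FZD8_CRD, NEURL1B by 0.95, NUMBL by 0.39 and MIB1 by 0.33, and ITCH and MIB2 fell by 0.36 and 0.37. Control siRNA against no transfection moved several of these the same way. DTX2 rose by 0.60 to 0.71 on the 4 probes, NEURL1B by 0.51 and NUMBL by 0.31, and ITCH fell by 0.57. Against that control ITCH rose by 0.35 with CTNNB1 siRNA. With CTNNB1 siRNA and Wnt3a DTX1 fell by 0.66, FBXW7 rose by 0.28 and NEURL1B by 0.54. BHLHE40, a relative of HES not held to be a Notch target, fell by 0.75 with CTNNB1 siRNA, BHLHE41 by 0.50 with FZD8_CRD, and 2 of the 3 HES6 probes moved by 0.45 and -0.32 with FZD8_CRD, in opposite directions.

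For the members whose brightest probe spanned at least 1 log2 unit over conditions, the genes with the most similar profile over the 24 arrays were listed as a description, since arrays of a condition share treatment and slide. NOTCH3 was closest to PRAF2 (Pearson r = 0.93), SBSN (0.92) and ARHGEF3 (0.91). JAG2 was closest to ALDH3A1 (0.91), SH3BGRL3 and CHST11 (both 0.87). For JAG1 they were TPST2 (0.95), KRT6C (0.94) and IER3 (0.94). HES1 followed AFP, the fetal liver protein (0.92), CD44 (0.91) and LPCAT1 (0.90), and HEY1 followed RDX (0.93), TP53I3 (0.93) and BEX5 (0.92).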

How the data were processed

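Scanner output deposited by the authors holds processed intensity from Agilent Feature Extraction (version 10.7.1.1 per the file headers, 10.7.3.1 per the submitters' processing notes), background-subtracted but not scaled across arrays. The authors also deposited log2 values for 25443 probes, an alternative here. Their centring and direction were found by setting each column against the same array's level minus the probe's median (slopes 0.885 to 1.02, r 0.926 to 0.992), and column medians ran from -0.0502 to 0.0190. Here each array was divided by its 75th percentile, outlier spots were dropped, spots of a probe were averaged, values under 1.43% of the percentile were set to that floor, and log2 was taken. Probes that passed the scanner's background test on each of 3 arrays in at least 1 condition (31067) were fitted in 1 limma model (limma 3.58.1, R 4.3.3; lmFit, eBayes with trend) with 8 condition means. Tests were two-sided, with Benjamini-Hochberg adjustment over all probes and a threshold of 0.05. The methods' thresholds (p under 0.01 with fold above 1.5 or below 0.7) were an alternative. On simulated data for Wnt3a without transfection, with 200 of 31067 probes changed, 70% of changes of 1 log2 unit and 94% of 2 units were recovered. For the difference of Wnt3a responses between CTNNB1 and control siRNA these shares were 50% and 81%. The simulated noise was independent between arrays, with 1 spread for each probe in all conditions and no slide effect. The real arrays share slide deviations and differ in spread, so these shares may not hold for them.

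Probes took symbols from RefSeq transcripts, and 28174 did. Each member was named, other pathway genes if called at least once, and the 3 most similar genes of each member whose brightest probe spanned at least 1 log2 unit. The members and lists were chosen with earlier results of these data known. The replicate number is also the slide, and 80 of 84 same-numbered pairs of arrays deviated together with a correlation over 0.1. P-values use the spread between arrays of a condition, pooled over the 8 conditions and moderated across probes. A probe therefore has the same standard error in each comparison of 2 conditions, even where its conditions differ in spread. The 3 arrays of a condition limit precision. Plots used matplotlib 3.10.9 (Python 3.11.15).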

Additional observations from a re-analysis of the deposited data

How the results depend on the processing

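The calls for LFNG A_23_P8452 after CTNNB1 siRNA (without and with Wnt3a), FZD8_CRD and control siRNA (both without Wnt3a), for JAG2 and NOTCH3 after CTNNB1 siRNA with Wnt3a, and for JAG1 and HEY1 after FZD8_CRD with Wnt3a held under all alternatives that included the probe (keeping 1 probe a gene leaves out LFNG A_23_P8452). Scaling to 7 spike-in probes turned NOTCH2 A_33_P3258824 after FZD8_CRD to -0.11 (adjusted p = 0.789) and RFNG after control siRNA to -0.019 (adjusted p = 0.970), and ended 30 of 42 single-probe results. Over the 10 comparisons the spike-in probes changed by -0.271 (control siRNA with Wnt3a) to 0.395 (Wnt3a without transfection), which this scaling takes off every difference, so that the median difference of all probes ran from -0.458 (FZD8_CRD without Wnt3a, -0.07 in the report) to 0.257 (control siRNA with Wnt3a, -0.01). Numbers of member probes called under it were 0 for Wnt3a without transfection (2 in the report), 0 for Wnt3a with FZD8_CRD (2), 1 for CTNNB1 siRNA without Wnt3a (7), 1 and 2 for FZD8_CRD without and with Wnt3a (7 and 8), and 1 and 0 for control siRNA (6 and 3). With only the compared conditions in the fit they were 0 for Wnt3a without transfection, 1 with control siRNA (0 in the report), 0 with FZD8_CRD, 5 for FZD8_CRD with Wnt3a and 0 for control siRNA with Wnt3a. With 1 probe a gene they were 1 for Wnt3a without transfection and 4 and 5 for FZD8_CRD. The methods' thresholds gave 1 for Wnt3a with control siRNA, 3 and 4 for FZD8_CRD and 2 for control siRNA without Wnt3a. Normexp correction gave 1 for Wnt3a with control siRNA, and quantile normalization and the authors' log2 values each gave 1 for Wnt3a with FZD8_CRD. These last 2 settings each ended 5 single-probe calls: HEY1 for Wnt3a with FZD8_CRD and for CTNNB1 siRNA without Wnt3a, NOTCH2 A_33_P3258824 for FZD8_CRD without Wnt3a, NOTCH3 for FZD8_CRD with Wnt3a and HES1 for control siRNA without Wnt3a. Testing all probes with no filter ended 3: that HEY1 call after CTNNB1 siRNA, that of NOTCH2 A_33_P3258824, and JAG1 for control siRNA without Wnt3a. The cause was not tested.

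Leaving out replicates gave 0 to 4 calls for Wnt3a without transfection, 0 to 0 with control siRNA and with CTNNB1 siRNA and 0 to 2 with FZD8_CRD. It gave 2 to 6 and 3 to 7 for CTNNB1 siRNA without and with Wnt3a, 5 to 7 and 5 to 8 for FZD8_CRD, and 2 to 5 and 0 to 4 for control siRNA. The differences of Wnt3a responses gave 0 to 0 (CTNNB1 siRNA) and 0 to 2 (FZD8_CRD). With the replicate number, which is also the slide, as a block, 42 of 42 single-probe results kept their direction and side of the threshold. For CTNNB1 siRNA 8 and 6 member probes were called without and with Wnt3a (7 and 6 in the report). The probe gained without Wnt3a was not called in the report and is not among the 42. HES1 was the uncalled probe closest to the threshold there (limma without the block, adjusted p = 0.0598). Same-numbered arrays correlated in their deviations at a mean of 0.37 and other arrays at -0.18, so arrays of a slide shared part of their deviation. The main model nevertheless has no block, since the methods name no pairing.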
